A study of Mus musculus with 20 samples.

Results

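The genes described here are 8 regulators of the endoderm: Foxa1, Foxa2, Foxa3, Sox17, Hnf4a, Hhex, Cer1 and Onecut1. They were taken by symbol, as every probe set annotated with 1 of these symbols alone, which gave 14 probe sets of the 45101 on the array, and 8 genes of the 18193 with such a probe set. The label groups them as endoderm transcription factors, and 7 of them encode transcription factors. Cer1 encodes a secreted protein that blocks Nodal and BMP signals, so it is an endoderm gene but not a transcription factor. The samples were whole wild-type C57BL/6 mouse embryos without the amnion, of mixed sex and kept specific-pathogen free. Each sample was a pool of RNA from several embryos on its own Affymetrix 430 2.0 mouse array. The stages, named by day of embryonic development, had 3 arrays each from E7.5 to E10.5 and 2 each from E12.5 to E18.5, giving 20 arrays over 8 stages of 1 genotype. The labels name the samples of a stage as biological replicates. Their p-values therefore rest on the spread between pools, and precision is limited by how few arrays a stage has.

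Endoderm is the germ layer that lines the gut and builds the liver, pancreas and lungs. The early embryo has a further endoderm, the visceral endoderm, which covers the epiblast, feeds it and later lines the yolk sac. Nodal signalling turns on Sox17 and Foxa2 as definitive endoderm leaves the primitive streak, and the Foxa proteins open chromatin for later factors. Hnf4a, a nuclear receptor, drives lipoprotein and metabolic genes in visceral endoderm and then in liver, kidney and intestine. Hhex and Onecut1 act in the liver and pancreas buds, and Cer1 is secreted by the anterior visceral endoderm and the anterior definitive endoderm. Several of these genes work outside the endoderm too: Foxa1 and Foxa2 in floor plate, Foxa2 in notochord, and Sox17 and Hhex in endothelium.

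The DNA just upstream of Hnf4a and Cer1, which fell most to E10.5 among the members in the sequence table, and of Foxa1, which was highest at E8.5, is shown first, because these factors are known to bind the promoters of endoderm genes. The sequences are 250 bases that end at the annotated transcription start, from RefSeq on mouse build GRCm38.p6, printed 5′ to 3′ on the gene's strand. They were matched by symbol, and 7 of the 8 members, all but Sox17, were in the table, with 10 windows in all. Capitals mark a match to 1 of 5 motifs searched on both strands: the Foxa motifs TGTTTAC and TGTTTGC, the Gata motif AGATAA, the Onecut motif ATTGAT and the Hnf4 motif CAAAGTC. No matches overlapped in the windows printed. The windows are Hnf4a at chr2:163506607-163506856 (plus strand), a further Hnf4a start at chr2:163546905-163547154 (plus strand), Cer1 at chr4:82885152-82885401 (minus strand) and Foxa1 at chr12:57546112-57546361 (minus strand). The Foxa1 window and the downstream Hnf4a window lie inside the annotated gene, ahead of an internal start.
Hnf4a, upstream start: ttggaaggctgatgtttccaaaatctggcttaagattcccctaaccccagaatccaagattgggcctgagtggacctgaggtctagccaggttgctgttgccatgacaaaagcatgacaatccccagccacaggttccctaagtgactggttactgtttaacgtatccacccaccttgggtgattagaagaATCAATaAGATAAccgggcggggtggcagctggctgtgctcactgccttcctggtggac
Hnf4a, downstream start: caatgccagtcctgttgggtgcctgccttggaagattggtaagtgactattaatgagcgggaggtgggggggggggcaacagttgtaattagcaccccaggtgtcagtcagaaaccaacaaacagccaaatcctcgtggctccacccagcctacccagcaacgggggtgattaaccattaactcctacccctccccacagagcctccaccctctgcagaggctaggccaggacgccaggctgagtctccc
Cer1: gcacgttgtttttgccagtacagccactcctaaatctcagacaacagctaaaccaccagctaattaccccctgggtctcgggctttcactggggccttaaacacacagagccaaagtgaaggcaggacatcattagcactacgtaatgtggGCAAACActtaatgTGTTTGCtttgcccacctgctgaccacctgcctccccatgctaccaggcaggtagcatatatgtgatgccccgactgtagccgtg
Foxa1: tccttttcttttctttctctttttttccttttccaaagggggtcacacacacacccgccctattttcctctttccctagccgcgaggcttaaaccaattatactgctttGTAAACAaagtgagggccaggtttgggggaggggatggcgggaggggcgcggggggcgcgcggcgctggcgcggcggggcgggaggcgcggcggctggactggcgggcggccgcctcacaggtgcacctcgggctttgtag
The upstream Hnf4a window held ATCAAT, the Onecut motif on the other strand, 54 to 59 bases before the start, and the Gata motif 47 to 52 bases before it. The downstream Hnf4a window held none of the 5. The Cer1 window held the TGTTTGC motif once on each strand, at 93 to 99 and at 79 to 85 bases before the start. The Foxa1 window held GTAAACA, the TGTTTAC motif on the other strand, 135 to 141 bases before the start. Of the 10 member windows 5 held a match, against 24.5% of all 32851 windows of this length. Singly, TGTTTAC was in 3.17% of them, TGTTTGC in 4.3%, AGATAA in 9.99%, ATTGAT in 6.72% and CAAAGTC in 3.84%. A match is a run of letters and does not show that a factor binds there.

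Values are MAS5 signals on a linear scale. A change is given on the scale of log2(signal + 25.9), with its SE from a limma fit over all genes. This scale makes the changes of dim genes look smaller. A gene was called where the adjusted p was below 0.05 and the change at least 2-fold, and only called changes are described as a rise or a fall. The adjusted p-values are limma's with Benjamini-Hochberg adjustment over 14044 genes, those above the array's median on at least 2 arrays. A stage value is a mean ± SD, over n = 3 arrays until E10.5 and n = 2 afterwards. Of the 8 members 7 were tested, and neither Onecut1 probe set passed the filter on low values. Median signals ran from 67.2 to 91.1 on the arrays of the 12 younger samples and from 156 to 178 on those of the 8 older ones. These array sets follow the stages, so in the step from E10.5 to E12.5 stage and array set cannot be told apart. The long comparisons were made within each set. Orders of stages given below are by signal, so where they set an early stage beside a late one they share this limit. In whole embryos, fewer cells of a type and less RNA per cell cannot be told apart either.

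The endoderm regulators did not share 1 course, as the plot of signal by stage shows. Sox17, Hnf4a and Cer1 were highest at E7.5. Foxa2 stepped down from E7.5 to E10.5, while Foxa1 was highest at E8.5. By signal, Foxa3 was lower from E8.5 to E10.5 than at E7.5 and than on the arrays of the late set. Hhex stayed between 199.1 and 445.6, and Onecut1 was low on nearly all arrays.

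**Figure D1:**
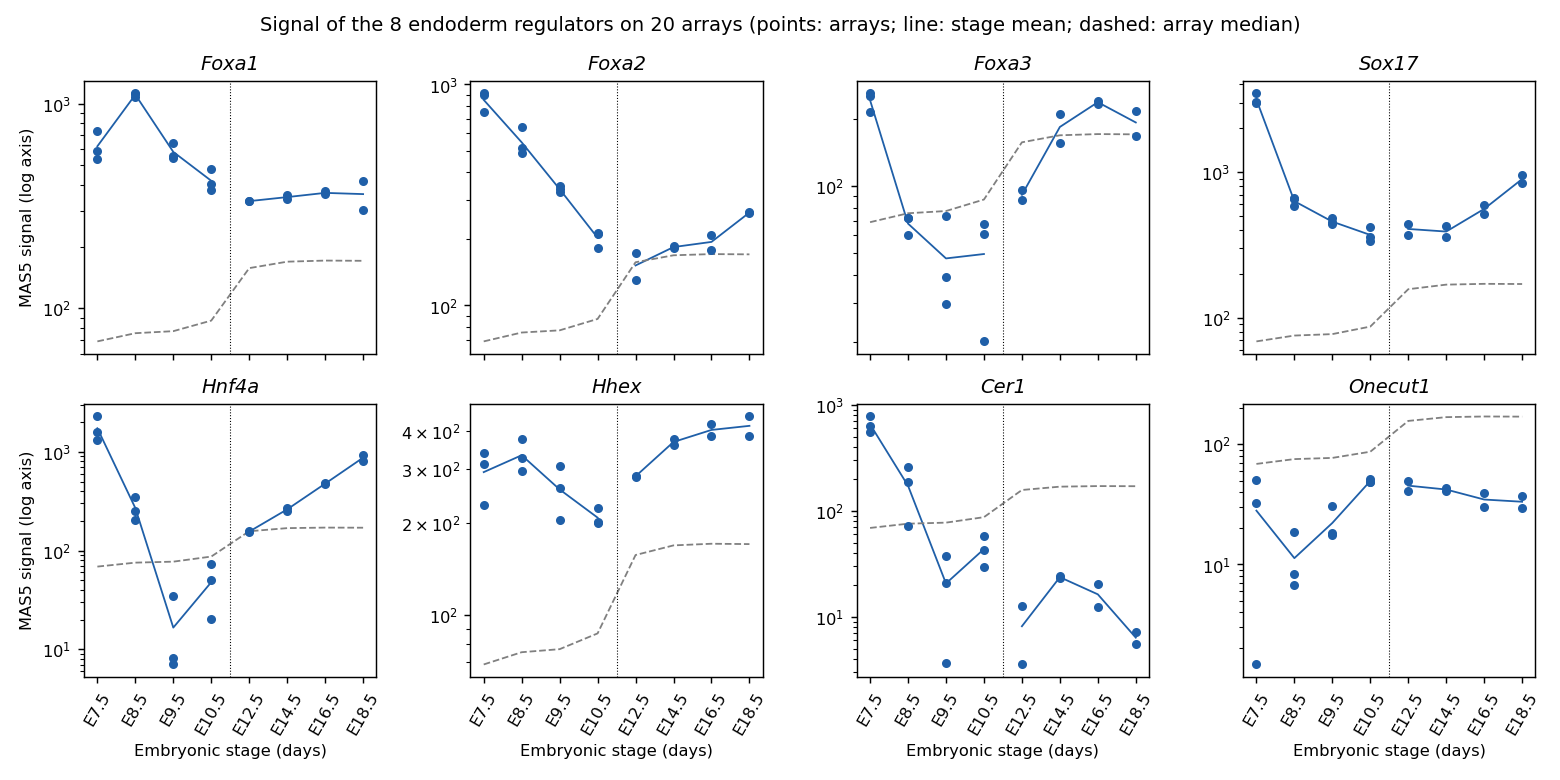
MAS5 signal (log axis) of each member by embryonic stage, 1 panel per gene. Points are single arrays, and lines join the stage means within an array set. The dashed line gives the array medians, averaged by stage, and the dotted line separates the array sets. Hnf4a has its highest points at E7.5, its lowest at E9.5 and higher points again at E18.5, whereas Hhex stays between 199.1 and 445.6.

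From E7.5 to E8.5, 4 of the 7 tested members fell, where 4.93% of all tested genes fell and 11.2% were called in either direction. Hnf4a fell by 2.57 ± 0.27 (adjusted p = 2.2e-07), Sox17 by 2.27 ± 0.11 (adjusted p = 2.5e-12), Cer1 by 1.90 ± 0.35 (adjusted p = 0.00017) and Foxa3 by 1.52 ± 0.26 (adjusted p = 8.9e-05). Foxa2 was at -0.62 ± 0.14 (adjusted p = 0.0012) and Foxa1 at 0.82 ± 0.13 (adjusted p = 3.8e-05), both under the 2-fold limit. The median change of the 7 was -1.52, beside 0.0345 over all genes tested. From E8.5 to E9.5 Hnf4a fell by a further 2.83 ± 0.27 (adjusted p = 2.6e-07) and Cer1 by 2.03 ± 0.35 (adjusted p = 0.00028), 2 of 7 members, where 1.68% of all genes fell and 4.17% were called. Cer1, counted in both of these steps, passed the filter only through arrays of E7.5 and E8.5, so the filter favoured its falls. From E9.5 to E10.5 none of the 7 was called, where 3.66% of all genes were called in either direction. Without the 2-fold limit 3 were called there in limma, where 18.8% of all genes were: Foxa1, Foxa2 and Hnf4a.

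Over the whole span from E7.5 to E10.5, 5 of the 7 tested members fell and none rose, where 7.49% of all genes fell and 23.5% were called. With arrays scaled to a common 75th percentile, 10.4% of all genes fell. This comparison uses the same E7.5 arrays as the first step and the same E10.5 arrays as the last. Hnf4a fell by 4.61 ± 0.27 (adjusted p = 1.2e-11), Cer1 by 3.30 ± 0.35 (adjusted p = 7.1e-08) and Sox17 by 3.00 ± 0.11 (adjusted p = 8.6e-15). Foxa2 fell by 1.94 ± 0.14 (adjusted p = 2.2e-10) and Foxa3 by 1.89 ± 0.26 (adjusted p = 2.9e-06). Foxa1 was at -0.53 ± 0.13 (adjusted p = 0.0017) and Hhex at -0.43 ± 0.16 (adjusted p = 0.024), neither at 2-fold. The median of the 7 was -1.94, beside 0.111 over all genes. Cer1 was above the array median only on 5 arrays of E7.5 and E8.5, so it entered the test through the stages where it was high. In an F test over these 4 stages all 7 were called, where 60.9% of all genes were.

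**Figure D2:**
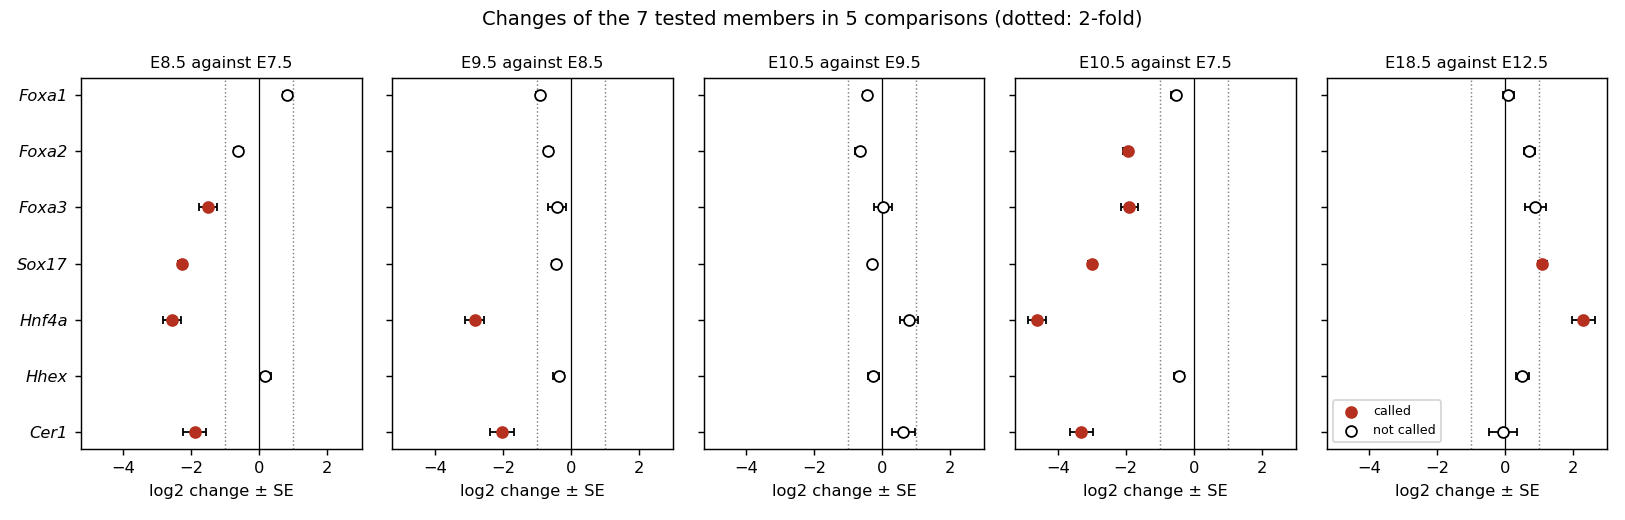
Change of each tested member on the log2 scale in 5 comparisons, with bars of 1 SE. Filled points passed an adjusted p of 0.05 and 2-fold (dotted lines), and open points did not. In E10.5 against E7.5 the 5 filled points all lie below 0, and in E18.5 against E12.5 the 2 filled points, Sox17 and Hnf4a, lie above it.

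Hnf4a had the largest called changes of the members on the log2 scale, in the early and in the late span. Its signal on the E7.5 arrays was 2280.4, 1319.6 and 1596.2, and at E8.5 it was 350.9, 203.8 and 254.1. At E9.5 it was 34.6, 7.02 and 8.12, and at E10.5 it was 49.8, 20.1 and 73.6. Of the arrays of these stages, 3 were below the array's 25th percentile. The E7.5 arrays were all higher than every later array, and those of E9.5 and E10.5 overlapped and were all lower than the rest. The later arrays gave 157.3 and 154.0 at E12.5, 269.1 and 253.6 at E14.5, 485.1 and 466.8 at E16.5, and 813.1 and 931.6 at E18.5. Each later stage was thus above the one before, without overlap, although no single step among them was called. In these late steps the arrays of 63%, 58.8% and 62.9% of all genes did not overlap, in either direction. By signal E14.5 overlapped E8.5 in this order, and E18.5 (872.4 ± 83.8) was second to E7.5 (1732.1 ± 494.6). Over the array median E14.5 was 1.55 and E18.5 was 5.12, beside 3.63 at E8.5.

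Hnf4a is measured by 4 probe sets, whose log2 values correlated over the 20 arrays with r between 0.883 and 0.939. The suffixes s_at and x_at mark probes that may also bind other transcripts, and 1427001_s_at stands for the gene. The probe sets share the arrays and the RNA, and their signals cannot be set against each other. In a fit of 25550 probe sets, all 4 fell from E7.5 to E8.5, by 2.15 to 2.72, and from E7.5 to E10.5, by 2.45 to 4.61. One of them, 1450447_at, was above the array median on 3 arrays only, all of E7.5, so the filter favoured its falls. From E8.5 to E9.5, 3 of the 4 fell, and 1450447_at was at -0.44 ± 0.24 (adjusted p = 0.27). Sox17 has a second probe set, 1421657_a_at, with 1628.0, 1219.0 and 1372.2 at E7.5 and 445.4, 397.9 and 248.1 at E8.5. That probe set fell by 1.91 ± 0.17 (adjusted p = 4.3e-08) over this step and by 2.68 ± 0.17 (adjusted p = 8.8e-11) to E10.5. Both Sox17 probe sets therefore fell early, by amounts whose difference was not tested, and they correlated with r = 0.96 over 20 arrays.

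**Figure D3:**
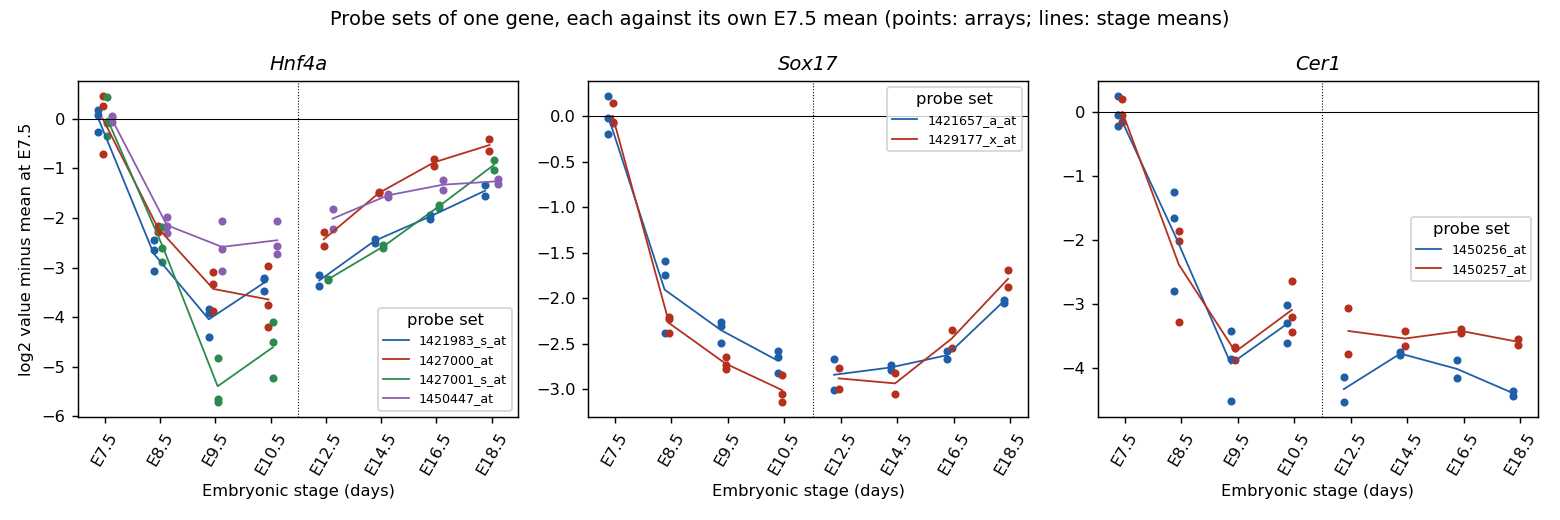
Values of log2(signal + 25.9) for each probe set of Hnf4a, Sox17 and Cer1, each set relative to its own E7.5 mean, by embryonic stage. Onecut1, which also has several probe sets, is not drawn. Points are arrays, lines are stage means, and the dotted line separates the array sets. All 4 Hnf4a lines drop by more than 2 from E7.5 to E8.5, and they spread apart at E9.5.

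Sox17, an HMG-box factor needed to form definitive endoderm and also made by arterial endothelium, was 3463.2, 2963.4 and 3004.6 at E7.5 on the probe set that stands for it, 1429177_x_at. It was 652.0, 659.0 and 581.6 at E8.5, 437.6, 480.0 and 452.3 at E9.5, and 335.4, 357.4 and 417.2 at E10.5. Most of the early fall therefore lay in the first step, and E9.5 and E10.5 did not overlap, as in 32.1% of all genes. From E9.5 to E10.5 the change was -0.29 ± 0.11 (adjusted p = 0.076). The later arrays gave 441.4 and 372.0 at E12.5, 423.2 and 357.4 at E14.5, 597.4 and 519.1 at E16.5, and 835.8 and 953.8 at E18.5. By signal, E9.5 to E14.5 formed a low stretch in which E10.5, E12.5 and E14.5 overlapped, and E18.5 was second to E7.5. Over the array median E18.5 was 5.25, beside 8.42 at E8.5 and 5.95 at E9.5.

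Cer1 on probe set 1450256_at was 775.3, 556.8 and 631.3 at E7.5 and 188.2, 71.5 and 257.2 at E8.5. At E9.5 it was 37.5, 20.6 and 3.64, and at E10.5 it was 29.4, 43.0 and 58.0. From E12.5 no array exceeded 24.2, and 10 of the 20 arrays were below the array's 25th percentile. Only E7.5 and E8.5 stood above the low range, without overlap between them, as in 43.4% of all genes. The second probe set, 1450257_at, was 340.3, 370.5 and 442.3 at E7.5 and 16.1, 75.6 and 86.9 at E8.5. It fell by 2.38 ± 0.34 (adjusted p = 1.8e-05) in the first step and by 1.36 ± 0.34 (adjusted p = 0.011) in the next. This probe set was above the array median on 4 arrays and below the 25th percentile on 14. Both Cer1 probe sets fell in both steps, but both passed the filter only through arrays of E7.5 and E8.5, which favoured these falls.

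The 3 Foxa genes encode forkhead factors that bind like DNA motifs, yet their signals took different courses. Foxa1 was 734.1, 537.7 and 583.4 at E7.5, 1120.6, 1074.9 and 1119.2 at E8.5, 640.6, 543.5 and 556.7 at E9.5, and 477.2, 403.7 and 377.0 at E10.5. All 3 E8.5 arrays exceeded every other array, while E7.5 and E9.5 overlapped. The step up to E8.5 was 0.82 ± 0.13 and the step down to E9.5 was -0.90 ± 0.13 (adjusted p = 4.5e-05), each short of 2-fold. From E12.5 to E18.5 Foxa1 lay between 302.2 and 419.7, with the E18.5 arrays at both ends of that range, and an F test over these 4 stages gave an adjusted p of 0.92.

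Foxa2, which is needed for node, notochord and endoderm, was 896.0, 748.4 and 910.8 at E7.5 and 639.7, 514.7 and 487.4 at E8.5. It was 326.7, 335.6 and 345.7 at E9.5 and 211.5, 182.4 and 213.7 at E10.5. Each stage lay below the one before without overlap. In these steps the arrays of 43.4%, 29.7% and 32.1% of all genes did not overlap, in either direction. The changes were -0.62, -0.65 and -0.67, each under 2-fold, and they added to the called fall to E10.5. The later arrays gave 130.6 and 172.9 at E12.5, 185.6 and 182.0 at E14.5, 178.8 and 209.1 at E16.5, and 264.7 and 262.0 at E18.5. Among the late stages E18.5 was highest, and E16.5 overlapped E14.5. By signal E18.5 lay above E10.5 and below E9.5, and E10.5 overlapped E16.5. Over the array median E18.5 was 1.55 and E16.5 was 1.13, both below the 2.34 of E10.5.

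Within an array, the log2 of Foxa1 over Foxa2 was compared with its own mean at E7.5, since the level of the ratio depends on the probes. It was higher by 1.44 at E8.5 (1.24 to 1.61 on the 3 arrays), by 1.19 at E9.5 and by 1.41 at E10.5. At E12.5 it was higher by 1.48, at E14.5 and E16.5 by 1.29, and at E18.5 by 0.86 (0.64 and 1.07). All 17 arrays after E7.5 were above all 3 E7.5 arrays, which lay between -0.17 and 0.17. These values were not tested, and they show an unequal course of the 2 genes, not which of them was steady.

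**Figure D4:**
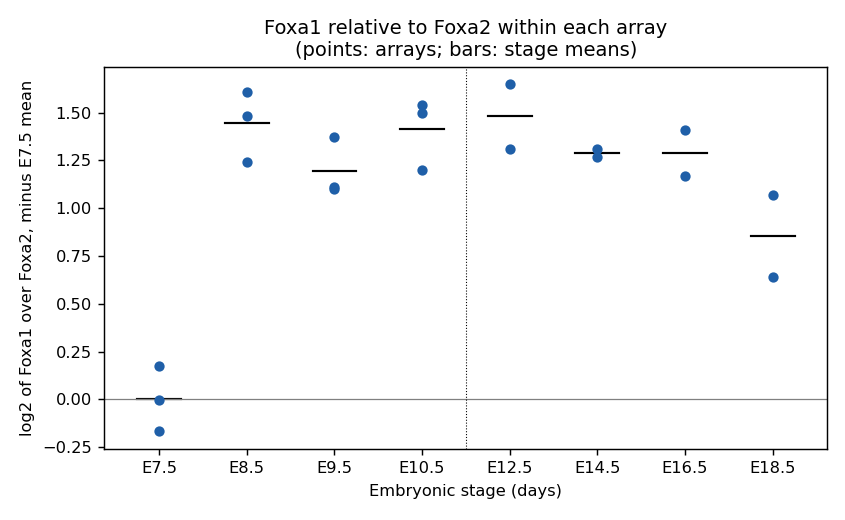
Log2 of Foxa1 over Foxa2 within each array, relative to the mean of E7.5, by embryonic stage. Points are arrays, bars are stage means, and the dotted line separates the array sets. The E7.5 arrays lie near 0 and the 17 later arrays lie above them, the lowest being an E18.5 array at 0.64.

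Foxa3, the Foxa gene most tied to liver, was 259.9, 253.3 and 214.2 at E7.5 and 60.3, 71.5 and 71.6 at E8.5. It was 39.2, 29.6 and 73.2 at E9.5 and 20.1, 61.1 and 67.4 at E10.5. By signal, the arrays from E8.5 to E10.5 overlapped and lay below those of all other stages. Over the array median, E12.5 was 0.58, beside 0.90 at E8.5 and 0.56 at E10.5. From E10.5 to E12.5 Foxa3 was at 0.70 ± 0.29 (limma adjusted p = 0.053) and was not called. The later arrays gave 86.8 and 95.7 at E12.5, 156.6 and 211.1 at E14.5, 233.4 and 241.4 at E16.5, and 168.2 and 217.0 at E18.5. E14.5 overlapped E18.5. By signal E16.5 overlapped E7.5, but over the array median it was 1.39, beside 3.53 at E7.5. Foxa3 was above the array median on 7 arrays, 3 of the early set and 4 of the late set.

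Hhex, a homeobox factor of the liver and thyroid buds and of endothelium, was 339.7, 311.1 and 228.3 at E7.5 and 377.1, 295.2 and 326.0 at E8.5. It was 260.8, 204.1 and 306.6 at E9.5 and 199.1, 201.9 and 222.9 at E10.5. It was 285.0 and 282.9 at E12.5, 375.1 and 360.5 at E14.5, 383.9 and 421.5 at E16.5, and 385.0 and 445.6 at E18.5. Neighbours in its order of stages overlapped in all cases but E16.5 with E14.5. Hhex was called in none of the 9 comparisons between stages, and in the F test over E7.5 to E10.5 its adjusted p was 0.013.

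Onecut1, which acts upstream of other liver and pancreas factors, was low throughout. Its probe set 1421447_at ranged from 1.47 to 51.1 and was above the array median on 0 of 20 arrays, and 1450252_at ranged from 2.55 to 80.1 and was above it on 1. The second of these gave 80.1, 71.1 and 76.9 at E10.5, where no array of E7.5 to E9.5 exceeded 39.8. With no filter on low values, the adjusted p of 1421447_at in limma was 0.10 or more in every comparison between stages, including 0.61 ± 0.29 for E10.5 against E7.5. In the same fit an F test over E7.5 to E10.5 gave an adjusted p of 0.04 for this probe set, and one over E12.5 to E18.5 gave 0.93. As neither probe set passed the filter, Onecut1 is given here as values only.

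From E10.5 to E12.5 Hnf4a rose by 1.37 ± 0.30 (adjusted p = 0.001) and Cer1 fell by 1.02 ± 0.39 (adjusted p = 0.036). Of all genes 12.6% were called in this step, 10.6% upward and 2.02% downward, and the array set changed with it. The median over all genes was 0.12, and it was -0.11 after quantile normalization. Hnf4a was then at 0.72 (adjusted p = 0.10) and was not called. Of its 4 probe sets 2 rose, while 1421983_s_at was at 0.05 ± 0.22 (adjusted p = 0.88). The Cer1 values lay near the bottom of the arrays, 1450257_at was at -0.33 ± 0.38 (adjusted p = 0.51), and the call was lost when either E12.5 array, or E10.5 array 2 or 3, was left out (-0.83 to -1.22).

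In the late embryo, from E12.5 to E18.5, Hnf4a rose by 2.30 ± 0.33 (adjusted p = 7.9e-06) and Sox17 by 1.09 ± 0.14 (adjusted p = 1.3e-06), 2 of the 7 tested members, where 15.2% of all genes rose and 21.7% were called. None of the 7 fell. Foxa3 was at 0.89 ± 0.32 (adjusted p = 0.024), Foxa2 at 0.71 ± 0.17 (adjusted p = 0.0014) and Hhex at 0.51 ± 0.19 (adjusted p = 0.033), all short of 2-fold. Foxa1 was at 0.09 ± 0.16 (adjusted p = 0.67) and Cer1 at -0.06 ± 0.42 (adjusted p = 0.91). The median of the 7 was 0.714, beside -0.0895 over all genes. None of the 7 was called in a single late step, where 3.65%, 3.78% and 4.29% of all genes were called in turn.

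Of the 4 Hnf4a probe sets, 3 rose over this span, by 1.81 to 2.30, and 1450447_at was at 0.75 ± 0.30 (adjusted p = 0.043). The second Sox17 probe set was at 0.80 ± 0.21 (adjusted p = 0.0039), and the mean of both gave 0.95, under 2-fold. The Sox17 call also ended when E12.5 array 2 (0.98) or E18.5 array 2 (1.00) was left out, each just under 2-fold, and Foxa3 was called at 1.05 without E18.5 array 1. In an F test over E12.5 to E18.5, 4 of the 7 were called, Foxa2 (adjusted p = 0.011), Foxa3 (adjusted p = 0.023), Sox17 (adjusted p = 1.7e-06) and Hnf4a (adjusted p = 4.7e-05), where 48.6% of all genes were. The calls of Sox17 and Hnf4a in this F test held with each array left out. Foxa2 was no longer called without E12.5 array 1 (adjusted p = 0.064), E18.5 array 1 (0.068) or E18.5 array 2 (0.062). Foxa3 was no longer called without E12.5 array 1 (adjusted p = 0.16), E12.5 array 2 (0.11) or E16.5 array 2 (0.054), after quantile normalization (0.061) or with a pseudocount 4 times smaller (0.073). Hhex was called in it after quantile normalization (adjusted p = 0.019) and in a fit of the late arrays alone (0.016).

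Visceral and yolk sac endoderm is the tissue in which Hnf4a is active before the liver exists. Its genes fell from E7.5 to E10.5, as did Hnf4a, Sox17 and Cer1, and as did the gut epithelium genes given below. All 9 tested genes of a list of 10 fell from E7.5 to E8.5 and from E7.5 to E10.5, with a median of -6.05 over the longer span. Of all genes, 4.93% and 7.49% fell. Spink1, a trypsin inhibitor, fell by 7.94 ± 0.20 (adjusted p = 3.4e-17), and Amn and Cubn, the receptor pair that takes up protein in yolk sac, kidney and ileum, fell by 7.40 ± 0.25 (adjusted p = 2.2e-15) and fell by 6.57 ± 0.54 (adjusted p = 1.8e-09). Rhox5, an X-linked homeobox gene of extraembryonic tissue, fell by 6.71 ± 0.16 (adjusted p = 2.5e-17). The summed signal of the list was 77914.7 to 87703.8 at E7.5, 15885.2 to 18493.7 at E8.5, 3039.9 to 4575.8 at E9.5 and 2814.4 to 3530.4 at E10.5. At E7.5 none of the 9 was below the array's 25th percentile, and at E10.5 1 was on all 3 arrays. The part of this tissue in the members' early fall was not tested.

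From E12.5 to E18.5, 5 of these 9 rose and 1 fell (median 1.77), where 15.2% of all genes rose and 6.44% fell. Apoa4, an apolipoprotein also made by intestine, rose by 8.30 ± 0.44 (adjusted p = 1.2e-11), Spink1 by 4.63 ± 0.24 (adjusted p = 8.8e-12), Amn by 2.98 ± 0.31 (adjusted p = 9.9e-08) and Cubn by 2.91 ± 0.66 (adjusted p = 0.00092). Cldn6, a tight junction protein of embryonic epithelia, fell by 1.35 ± 0.15 (adjusted p = 4.3e-07). The summed signal was 5168.5 to 5430.9 at E12.5 and 25460.6 to 27150.9 at E18.5. Genes of this list are also used by kidney, liver and intestine.

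Hepatocyte genes, many of them known targets of Hnf4a, split before E10.5 and moved 1 way after E12.5. Of 12 tested genes of a list of 15, 5 fell and 1 rose from E7.5 to E10.5 (median -0.771), and 11 rose and none fell from E12.5 to E18.5 (median 3.09). Of all genes, 7.49% fell and 16% rose in the early span, and 15.2% rose in the late one. In the early span the apolipoprotein genes Apoa1 and Apob fell by 6.02 ± 0.35 (adjusted p = 1.1e-11) and 3.92 ± 0.34 (adjusted p = 4.9e-09), and Ttr, the thyroxine carrier, fell by 3.88 ± 0.30 (adjusted p = 6.5e-10). Alb, the serum albumin gene, rose by 4.11 ± 0.29 (adjusted p = 2.4e-10) over the same span. In the late span Cps1, the first enzyme of the urea cycle, rose by 6.29 ± 0.34 (adjusted p = 1.6e-11), Apoc3 by 5.51 ± 0.28 (adjusted p = 5.8e-12), the fibrinogen gene Fgb by 4.78 ± 0.20 (adjusted p = 4.4e-13) and G6pc, which releases glucose, by 3.65 ± 0.49 (adjusted p = 3.3e-06). Among the 12, G6pc and Tat were above the array medians only at E18.5, so the filter favoured a late rise of both. The summed signal of the list was lowest at E9.5, at 3298.8 to 8314.1 and highest at E18.5, at 177834.1 to 180010.5.

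Genes of gut epithelium and other simple epithelia fell early and rose late. All 7 of the list fell from E7.5 to E10.5 (median -3.13), and 5 rose and none fell from E12.5 to E18.5 (median 1.73). Of all genes, 7.49% fell in the early span and 15.2% rose in the late one. The keratins Krt8 and Krt18 fell by 3.23 ± 0.13 (adjusted p = 2.3e-14) and 3.17 ± 0.07 (adjusted p = 9.6e-18), Trh, the thyrotropin-releasing hormone gene, fell by 3.67 ± 0.28 (adjusted p = 5.2e-10), and the tight junction gene Cldn7 fell by 3.13 ± 0.11 (adjusted p = 4.1e-15). Trh was above the array medians only from E7.5 to E9.5, so the filter favoured its fall. In the late span Cldn7 rose by 2.47 ± 0.13 (adjusted p = 1.5e-11), Cdh1, the epithelial cadherin gene, by 2.12 ± 0.21 (adjusted p = 8.2e-08), Epcam by 1.97 ± 0.18 (adjusted p = 2.8e-08) and Krt8 by 1.73 ± 0.16 (adjusted p = 1.7e-08). The summed signal of the 7 was 36654.2 to 39742.8 at E7.5, 2859.1 to 3051.8 at E12.5 and 10427.5 to 10454.1 at E18.5.

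Of 10 genes that act upstream of the members in specifying endoderm, 6 fell and 1 rose from E7.5 to E10.5 (median -1.34). Of all genes, 7.49% fell and 16% rose. Foxh1, the DNA-binding partner of Smads under Nodal, fell by 4.07 ± 0.36 (adjusted p = 5.2e-09), Mixl1, a homeobox factor of the primitive streak, fell by 3.58 ± 0.41 (adjusted p = 2.4e-07), and Tdgf1, the Nodal co-receptor, fell by 2.70 ± 0.33 (adjusted p = 6.3e-07). Mixl1 and Tdgf1 were above the array medians only at E7.5 and E8.5, and Foxh1 only from E7.5 to E9.5, so the filter favoured their falls. Gsc, a homeobox gene of the organizer that is used again in facial mesenchyme, rose by 2.20 ± 0.27 (adjusted p = 5.2e-07). It was above the array medians only on arrays of E10.5 and E12.5, so the filter favoured this rise. From E12.5 to E18.5, 4 fell and none rose, with Lhx1, a homeobox factor of the organizer, kidney and nervous system, at -2.51 ± 0.20 (adjusted p = 4.2e-09). Of all genes, 6.44% fell over this span. Of the 4 other antagonists made by anterior visceral endoderm, Sfrp1, a secreted Wnt inhibitor, rose by 1.24 ± 0.10 (adjusted p = 1.6e-09) from E7.5 to E10.5 and fell by 1.08 ± 0.12 (adjusted p = 4.2e-07) from E12.5 to E18.5. No other gene of those 4 was called over either span, where 23.5% and 21.7% of all genes were.

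Foxa2 is also a gene of notochord and floor plate, and Sox17 of endothelium, so genes of those tissues are given beside them. Their part in the members' early fall was not tested. Of 4 tested notochord and floor plate genes of a list of 6, 2 rose and none fell from E7.5 to E10.5 (median 0.968): Shh, the signal of notochord and floor plate, by 2.46 ± 0.10 (adjusted p = 4.8e-14) and Spon1, which encodes F-spondin, by 2.16 ± 0.11 (adjusted p = 1.7e-12). Of all genes, 16% rose over this span. The summed signal of the 4 was 628.1 to 727.2 at E7.5 and 2725.4 to 3077.8 at E10.5. None of the 4 was called from E12.5 to E18.5, where 21.7% of all genes were. Of 9 tested endothelial genes of a list of 10, 5 rose and none fell from E7.5 to E10.5 (median 1.13), where 16% of all genes rose. Emcn, which encodes endomucin, rose by 4.83 ± 0.23 (adjusted p = 4.1e-13), and Sox18, a relative of Sox17 active in vessels, by 2.02 ± 0.14 (adjusted p = 1e-10). From E12.5 to E18.5, 1 of the 9 rose, where 15.2% of all genes did. It was Pecam1, an adhesion protein of endothelial cells, by 1.34 ± 0.18 (adjusted p = 4.6e-06), while the summed signal of the list was 3706.6 to 3905.7 at E12.5 and 5638.4 to 5734.7 at E18.5. The part of endothelium in the late rise of Sox17 was not tested.

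The genes whose log2 values ran most like each member over the 20 arrays were listed as a description, since all share the arrays and the stages. Hnf4a ran most like Apoe, an apolipoprotein gene (r = 0.979), then Ang and Pla2g12b (both 0.964). Foxa2 ran most like the keratin gene Krt18 (r = 0.983), then Slc9a3r1 (0.979) and Car4 (0.977). Sox17 ran most like Slc66a1 (r = 0.979), then Tmem144 (0.974) and Lrrc19 (0.969). Cer1 ran like Cited1 (r = 0.96), Pisd (0.958) and Pou5f1, the pluripotency factor Oct4 (0.953), and Foxa1 like Cdx4, a caudal-type homeobox factor (0.965), Rhou (0.931) and Lhpp (0.927). Foxa3 ran like Timd2 (r = 0.951), Anxa7 (0.943) and Mpzl2 (0.939), and Hhex less closely like Aldoc (0.904), Kifc3 (0.873) and Agmat (0.869). Among the members themselves, Hnf4a and Cer1 had r = 0.974 over the 12 early arrays and -0.216 over the 8 late ones. Sox17 and Hnf4a had 0.92 and 0.922 in the same sets, while Foxa1 and Foxa2 had 0.569 and 0.229.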

How the data were processed

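RNA of pooled whole embryos was extracted with a lipid tissue kit and biotin-labelled (one-cycle), per the labels' protocols. The deposited intensity values are MAS5 signals on a linear scale, per the submitters' processing notes, and the MAS5 version and settings are not given in the sources used here. Trimmed of 2% at each end, every array had a mean of 500, a common scale. No further normalization was applied. Arrays hold no count depth.

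Of 45101 probe sets, the 34945 with 1 symbol that are no controls were used, named through the platform annotation supplied with the series (932 had several symbols, 9211 none). A gene was represented by its probe set with the highest mean log2 value. Values were analysed as log2(signal + 25.9), where 25.9 is the middle value among the arrays' 25th percentiles. Of 18193 genes, 14044 above the array median on at least 2 arrays were tested. All 20 arrays entered 1 model with a mean per stage (limma 3.58.1, R 4.3.3; lmFit, contrasts, eBayes with trend; 12 residual degrees of freedom), which was checked on simulated data. Tests were two-sided. Within each array set, its last stage was compared with its first and an F test was run, beside the 7 steps between stages.

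The members and lists were chosen with earlier results of these data known. Named genes were the 8 members, up to 4 called genes with the largest change per list and comparison, and the 3 genes most like each member. Alternatives were quantile and 75th-percentile scaling, a 4 times larger or smaller pseudocount, a filter at the 75th percentile or none, averaging a gene's probe sets, fitting only the compared stages or the array set, no minimum fold, a replicate block and each array left out in turn.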

Additional observations from a re-analysis of the deposited data

How the results depend on the processing

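With any array left out, 4 members were called from E7.5 to E8.5, 5 from E7.5 to E10.5 and 7 in the early F test. With no minimum fold the first counts were 6 and 7, and with the filter at the 75th percentile, which left Foxa3 and Hhex untested, the 3 counts were 3, 4 and 5. From E12.5 to E14.5 no member was called under any setting run. From E10.5 to E12.5, 2 members were called, but 1 after quantile normalization, 0 with a pseudocount 4 times larger, 0 with probe sets averaged, and 1 to 2 with an array left out. From E12.5 to E18.5, 2 were called, but 1 with the larger pseudocount, 1 with probe sets averaged, 5 with no minimum fold, and 1 to 3 with an array left out. From E9.5 to E10.5, 0 were called, but 1 with a pseudocount 4 times smaller, 3 with no minimum fold and 0 to 1 with an array left out (Hnf4a, without E9.5 array 1 or E10.5 array 2, at 1.07 and 1.09). With no minimum fold, 5 were called from E8.5 to E9.5, 1 from E14.5 to E16.5 and 1 from E16.5 to E18.5, and quantile normalization called 1 in the last. The late F test called 2 to 4 with an array left out. The causes were not tested.

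The labels give no meaning to the replicate numbers, and they were not taken as pairs, since not every same-numbered pair of arrays deviated together. Of 62 such pairs 13 had a correlation of deviations over 0.1 (median 0.032, highest 0.282), against 0 of 112 other pairs (highest 0.0974). The number 1 arrays of E7.5 to E10.5 had 0.14 to 0.282 among themselves, and 12 of 20 arrays correlated best with their own number. The deviations were taken from each stage's own mean, so they cancel within a stage. From E12.5 on, the deviations of a stage's arrays were therefore equal and opposite. For E14.5 with E16.5, each same-numbered pair gave 0.135 and each other pair -0.135. Such pairs repeat 1 value, and other-numbered pairs are pushed to negative values. The pair counts and the count of 12 are thus partly fixed in advance. With the number as a block, 1 member was called from E10.5 to E12.5, since Cer1 was then at -0.98 (adjusted p = 0.051).

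The share of all genes called also depended on the settings. With the larger pseudocount it went from 11.2% to 6.07% for E8.5 against E7.5, from 4.17% to 1.89% for the next step, from 3.66% to 1.49% for E10.5 against E9.5, from 12.6% to 6.47% for E12.5 against E10.5, from 3.65% to 2.41% for E14.5 against E12.5 and from 23.5% to 15.2% for E10.5 against E7.5. With no minimum fold the 7 steps gave 37.9%, 16.4%, 18.8%, 47.5%, 10.4%, 10.3% and 15.8% in order, and the early and late spans 58% and 53.2%. Without E14.5 array 2 the share from E12.5 to E14.5 was 2.39%, and without E14.5 array 1 that from E14.5 to E16.5 was 2.51%, against 3.78%. Of the calls from E10.5 to E12.5, 16.1% were falls, but 42.3% after quantile normalization and 48.4% after scaling to the 75th percentile, and from E7.5 to E10.5 31.8% were, but 43.6% after scaling to the 75th percentile. From E9.5 to E10.5 quantile normalization moved 14% to 24.2%. No called value of a member turned sign in 983 values compared, and 19 uncalled ones did. Signal limits Onecut1 and late Cer1, which lay near the bottom of the arrays.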

Other observations

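Other organ factors of the endoderm did not move as 1 group. Of 10 tested genes of a list of 13, 3 rose and 2 fell from E7.5 to E10.5 (median 0.444, beside 0.111 over all genes). Of all genes, 16% rose and 7.49% fell. Sox9, an HMG-box factor of pancreas, lung, cartilage and nervous system, rose by 2.80 ± 0.22 (adjusted p = 8e-10), Onecut2, a relative of Onecut1 also used in neurons, by 2.76 ± 0.21 (adjusted p = 6e-10) and Ptf1a, a factor of pancreas and of inhibitory neurons, by 2.01 ± 0.30 (adjusted p = 9.9e-06). Cdx2, a caudal-type factor of trophoblast, tail bud and hindgut, fell by 4.59 ± 0.31 (adjusted p = 8.6e-11). Pdx1, a factor of the pancreas and duodenum, fell by 1.30 ± 0.38 (adjusted p = 0.006). It was above the array medians only at E7.5, so the filter favoured this fall.

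From E12.5 to E18.5, 3 of the 10 rose and 1 fell (median 0.394, beside -0.0895 over all genes). Of all genes, 15.2% rose and 6.44% fell. Cebpa, a factor of liver, lung and fat, rose by 3.10 ± 0.26 (adjusted p = 5.6e-09), Nr1h4, the bile acid receptor, by 2.33 ± 0.50 (adjusted p = 0.00059) and Cdx2, by then a factor of intestine, by 1.89 ± 0.38 (adjusted p = 0.00027). Nr1h4 was above the array medians only on arrays of E16.5 and E18.5, so the filter favoured its rise. Sox9 fell by 1.54 ± 0.27 (adjusted p = 6.2e-05). These genes are used in several tissues, and the part of each tissue was not tested.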
